A study of Mus musculus with 6 samples.

Results

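Gzma, Gzmb and Nkg7 are 3 genes of the cytotoxic granule, and they are described here in untreated colon of 3 WT and 3 Pum2-/- mice. They were taken by symbol from a deposited table of 68 genes, in 69 rows, which the authors had selected on a difference between these same 6 libraries, since all 69 rows carry an adjusted p-value under 0.05. The genotype difference of each gene was therefore used to choose it. It is given below as a description with no test, and it is no independent evidence of a difference. RNA came from colon tissue, was extracted with Trizol and was made into libraries with a SMARTER mRNA kit. The mice, bred onto FVB, an inbred strain, were kept specific pathogen free and received water without dextran sulfate sodium. WT mice carry Pum2, which encodes an RNA-binding protein that represses mRNAs carrying its recognition element, and Pum2-/- mice lack the gene in every tissue rather than in one cell type. For its colitis work the study used age-matched young adult males, with untreated mice of both genotypes as controls and littermates sharing cages or caged at random. The age, litter and cage of each sequenced mouse were not given in the sources used here. The comparison addresses which transcripts differ in the resting colon when Pum2 is lost.

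Cytotoxic lymphocytes, which are CD8+ T cells, natural killer cells and many intraepithelial lymphocytes, store serine proteases called granzymes in secretory granules. On contact with a target cell the granules fuse with the plasma membrane, perforin opens the way into the target, and granzymes cleave proteins there. Granzyme A, encoded by Gzma, cuts after basic residues, granzyme B, encoded by Gzmb, cuts after aspartate and activates caspases, and Nkg7 encodes a membrane protein of the granule that takes part in its release. In the gut such cells lie mostly within and just beneath the epithelium.

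Deposited values were normalized by a method not given in the sources used here, so the depth of each library is unknown. Pum2 values were 17.8, 16.1 and 16.5 in the WT libraries and 2.94, 2.68 and 1.45 in the Pum2-/- libraries, so the 6 libraries separated by Pum2 as labelled. Of the 68 genes, 34 were higher and 34 lower in Pum2-/- mice. The defining markers of the cell types that could carry the granule genes, among them Prf1, Cd8a, Cd3e and Ncr1, and of colon epithelium, such as Epcam and Krt20, were not analysed here. The granule genes can therefore be assigned to no cell type from these values, and in bulk tissue more cells of a type and more RNA per cell cannot be told apart.

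Since the 3 genes lie on 3 different chromosomes, the sequences before their transcription starts are shown for each. They were taken from the RefSeq promoter table of GRCm38.p6, which held all 3 genes, are written 5′ to 3′ on the strand of the gene and stop before the annotated transcript. The Gzma stretch lies at chr13:113100982-113101231 on the minus strand, the Gzmb stretch at chr14:56262335-56262584 on the minus strand and the Nkg7 stretch at chr7:43436888-43437072 on the plus strand. Capitals mark matches to a searched motif on either strand.
Gzma: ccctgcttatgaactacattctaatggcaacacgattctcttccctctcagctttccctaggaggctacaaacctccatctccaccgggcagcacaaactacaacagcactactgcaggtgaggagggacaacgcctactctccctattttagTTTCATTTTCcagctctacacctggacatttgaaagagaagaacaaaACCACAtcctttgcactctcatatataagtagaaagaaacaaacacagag
Gzmb: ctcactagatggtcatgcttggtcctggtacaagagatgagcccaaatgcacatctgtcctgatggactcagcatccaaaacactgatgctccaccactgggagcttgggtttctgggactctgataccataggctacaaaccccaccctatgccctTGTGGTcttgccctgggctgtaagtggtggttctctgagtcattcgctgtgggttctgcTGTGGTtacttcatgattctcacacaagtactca
Nkg7: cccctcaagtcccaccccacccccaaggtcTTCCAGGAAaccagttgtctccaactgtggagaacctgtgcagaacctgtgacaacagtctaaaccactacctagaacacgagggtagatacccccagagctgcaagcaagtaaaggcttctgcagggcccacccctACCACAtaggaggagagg
The Runx core TGTGGT, the site read by Runx factors that act in cytotoxic T cells, was matched in all 3 promoters. It lay 50 bases before the start of Gzma and 83 bases before that of Nkg7, both on the opposite strand as ACCACA, and 93 and 34 bases before that of Gzmb. The same letters occur in 16.8% of 32851 promoters of 300 bases. The interferon-stimulated response element, searched as 2 copies of GAAA with 2 bases between them and found in 3.44% of promoters, was matched once, 97 bases before the start of Gzma on the opposite strand. The STAT site TTCNNNGAA, which reads the same on both strands and is found in 8.30% of promoters, was matched 220 bases before the start of Nkg7 and also 37 bases after that of Gzmb, beyond the stretch shown. The T-box site GGTGTGA, found in 3.98% of promoters, was matched 13 bases before the start of Nkg7, again beyond the stretch shown, and no match overlapped another. Distances count from the RefSeq start, which lies inside the gene as annotated by GENCODE for Nkg7 and before it for Gzmb. The T-box match thus lay inside the GENCODE gene of Nkg7, and the STAT match of Gzmb before that of Gzmb. These matches describe the letters, no binding was measured, and no link to the levels of the genes was tested.

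Gzma (ENSMUSG00000023132) lies on chromosome 13 from 113093825 to 113100981 on the minus strand in GENCODE M21 on GRCm38, with 2 annotated transcripts, the longest of which has 6 exons and 996 bases. Its normalized expression was 4.59, 9.09 and 20.4 in WT replicates 1, 2 and 3 and 22.4, 55.2 and 112 in Pum2-/- replicates 1, 2 and 3. Every Pum2-/- library was above every WT library, but only just, since the lowest Pum2-/- value was 1.10 times the highest WT value. Means were 11.4 ± 8.16 (SD, n = 3) in WT and 63.3 ± 45.5 (SD, n = 3) in Pum2-/- mice. On the log2(value + 1) scale the difference of genotype means was 2.32 (SE 0.865), a fold of 4.98. The spread was wide in both genotypes, with a coefficient of variation of 71.8% in WT and 71.9% in Pum2-/- mice, and the highest library exceeded the lowest 4.45 times and 5.01 times.

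Gzmb (ENSMUSG00000015437) lies on chromosome 14 from 56258838 to 56262260 on the minus strand, with 1 annotated transcript of 5 exons and 1436 bases, in a cluster of granzyme genes of similar sequence. How reads shared within that cluster were counted was not given in the sources used here. Its normalized expression was 14.9, 11.1 and 50.9 in the WT libraries and 110.5, 161 and 136 in the Pum2-/- libraries. WT replicate 3 stood above the other two, and all Pum2-/- values were at least 2.17 times its value. Mean values of 25.6 ± 22.0 in WT and 136 ± 25.5 in Pum2-/- mice (SD, n = 3) gave a log2 difference of 2.65 (SE 0.663) and a fold of 6.29. Unlike Gzma, Gzmb was even across the Pum2-/- mice, with a coefficient of variation of 18.7% against 85.7% in WT. With WT replicate 3 left out the fold became 9.76, and with WT replicate 2 left out it became 4.71.

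Nkg7 (ENSMUSG00000004612) lies on chromosome 7 from 43437073 to 43438249 on the plus strand, with 3 annotated transcripts, 2 of them protein-coding, the longest having 4 exons and 881 bases. It was measured at 5.58, 5.05 and 12.1 in WT and at 19.5, 21.3 and 42.9 in Pum2-/- libraries. Both genotypes held a pair of close values and a higher one in replicate 3, and the genotypes did not overlap, with 1.62 times between the nearest values. Means of 7.56 ± 3.90 (SD, n = 3) and 27.9 ± 13 (SD, n = 3) gave a log2 difference of 1.76 (SE 0.494), or 3.38-fold. Coefficients of variation were 51.6% and 46.6%.

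**Figure D1:**
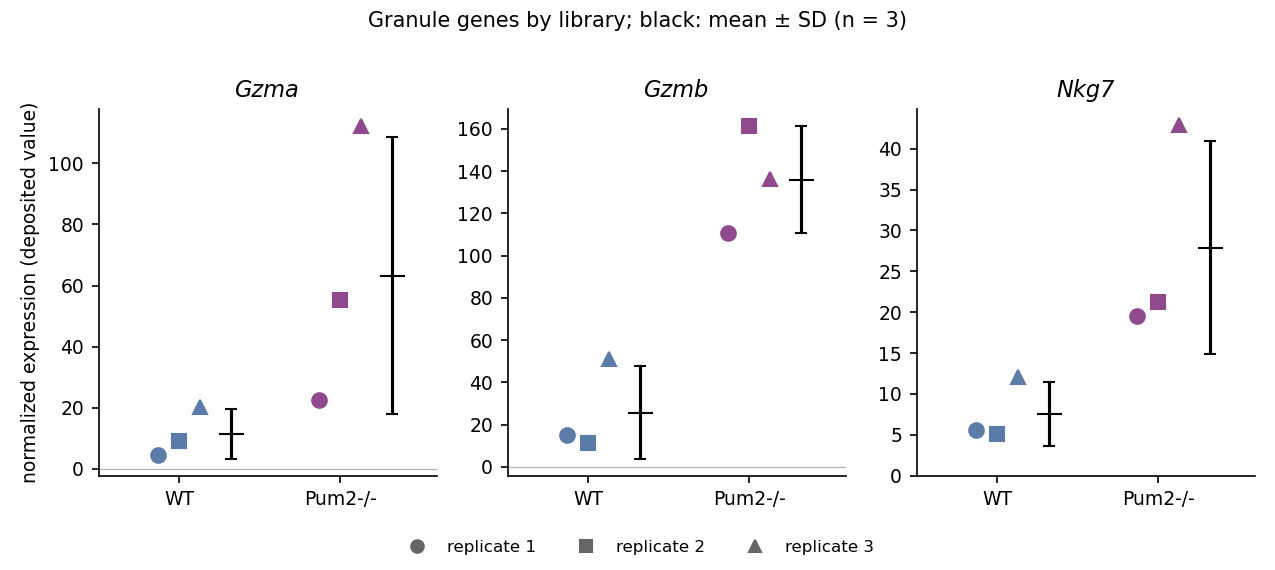
Normalized expression of Gzma, Gzmb and Nkg7 (linear y axis, own range in each panel) in each WT (blue) and Pum2-/- (purple) library, with the mean and SD of 3 libraries in black and the replicate number given by the symbol. All Pum2-/- values lie above all WT values, by 1.10 times for Gzma and 2.17 times for Gzmb at the nearest point, and replicate 3 is the highest WT library for each gene.

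In 3 of the 3 granule genes no Pum2-/- library fell among the WT libraries, and all were higher. The background share is 44.1%, or 30 of the 68 listed genes, and since the table was selected on this contrast nothing is read from either count. Among the 34 genes higher in Pum2-/- mice, Gzmb ranked 9, Gzma 16 and Nkg7 28 by log2 difference. By the distance between the nearest values of the genotypes, among the 30 genes without overlap, Gzmb ranked 16, Nkg7 20 and Gzma 29, counting first a gene whose WT values were all 0. Gzma thus had a larger difference of means than Nkg7 and a smaller gap between the genotypes.

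**Figure D2:**
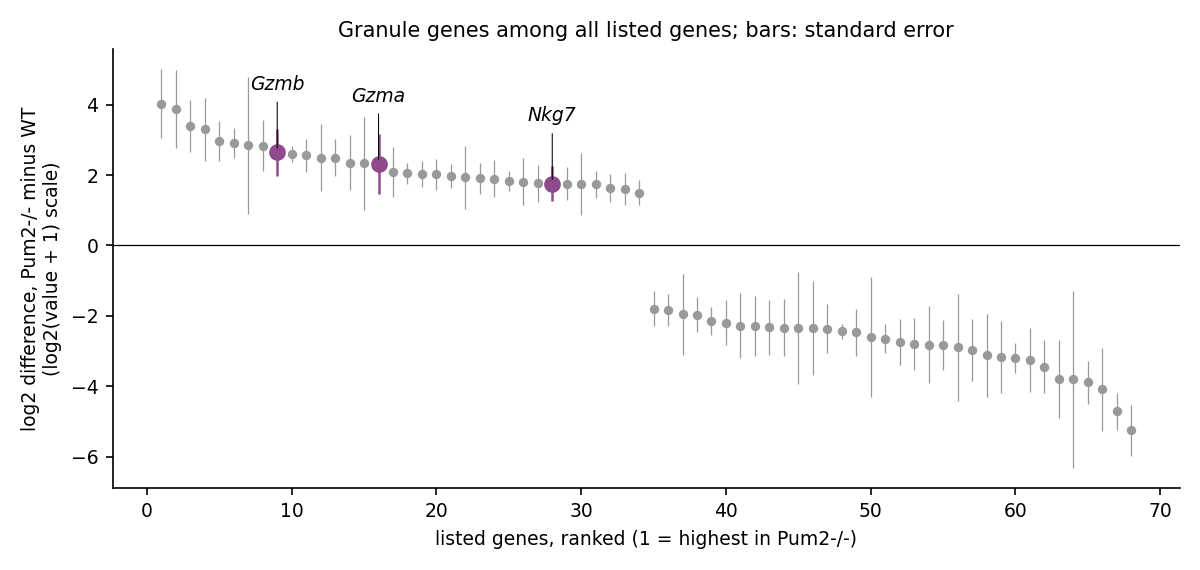
Difference of genotype means of log2(value + 1), Pum2-/- minus WT (y axis), for the 68 listed genes in descending order (x axis), with bars for the standard error and the granule genes in purple. Gzmb at 2.65, Gzma at 2.32 and Nkg7 at 1.76 lie within the range of the 34 higher genes, and no listed gene lies near 0.

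Levels of different genes were compared per kilobase of annotated exon, because low values in WT replicate 2 and Pum2-/- replicate 1 lay at whole multiples of a single step for all genes (100% of values from 0.5 to 10, within 0.08 of a step), as values not divided by gene length would. The share was lower in the others, at 95.8% for WT replicate 1 and 70.0% for WT replicate 3, and at 83.3% for Pum2-/- replicate 2 and 3 of 6 values for Pum2-/- replicate 3, with the step chosen to make it largest, so read numbers were not recovered for all libraries. In steps, Nkg7 stood at 6.0, 5.0 and 20.0, Gzmb at 16, 11.0 and 113, and Gzma at 4.93, 8.99 and 22.9 in WT replicates 1 and 2 and Pum2-/- replicate 1. If a step is 1 read, the WT levels of Gzma and Nkg7 rest on few reads.

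Per kilobase, mean levels in WT mice were 17.9 ± 15.3 for Gzmb, 11.3 ± 8.11 for Gzma and 8.28 ± 4.27 for Nkg7 (SD, n = 3). These neighbours did not differ beyond their spread. In Pum2-/- mice the order of the means was the same, with 94.7 ± 17.7 for Gzmb, 62.9 ± 45.2 for Gzma and 30.5 ± 14.2 for Nkg7. Gzmb and Nkg7 were apart in all Pum2-/- libraries, from 76.9 to 112 against 21.4 to 46.9, while Gzma ran from 22.3 to 112 and overlapped both. Within each Pum2-/- library Gzma exceeded Nkg7, at 22.3, 54.8 and 112 against 21.4, 23.3 and 46.9. In Pum2-/- replicate 3 Gzma also exceeded Gzmb, at 112 against 94.8, and in WT replicate 1 it lay below Nkg7, at 4.56 against 6.10. Within each WT library Gzmb also exceeded Nkg7, at 10.4, 7.74 and 35.5 against 6.10, 5.53 and 13.2.

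**Figure D3:**
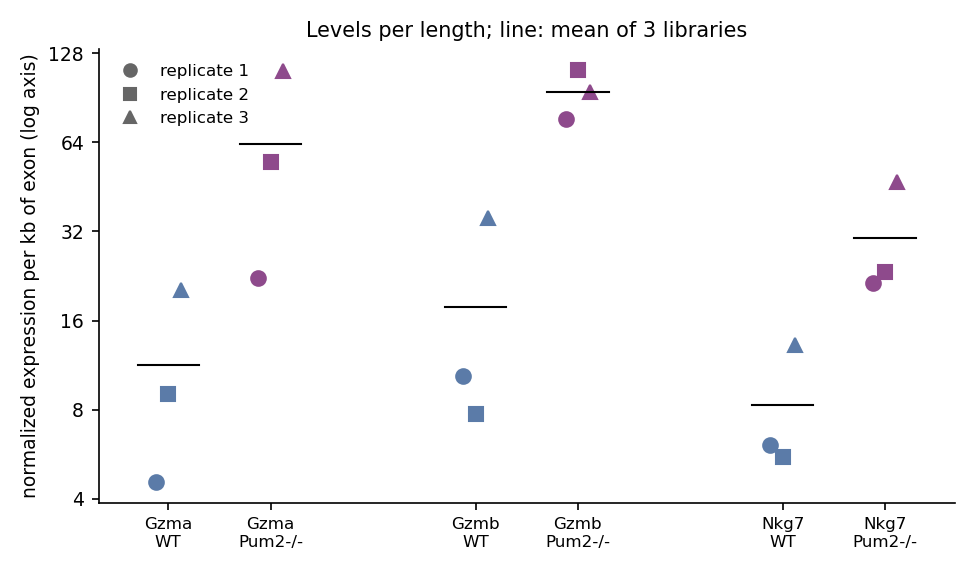
Normalized expression per kilobase of annotated exon (log axis) for each granule gene in WT (blue) and Pum2-/- (purple) libraries, with a line at the mean of 3 libraries. In Pum2-/- mice all Gzmb values, 76.9 to 112, exceed all Nkg7 values, 21.4 to 46.9, and Gzma, 22.3 to 112, overlaps both.

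The proportions of the granule genes within a library did not separate the genotypes. The ratio of Gzmb to Gzma, both as deposited, was 3.25, 1.22 and 2.49 in WT and 4.93, 2.93 and 1.21 in Pum2-/- libraries, and the genotypes overlapped. Gzmb over Nkg7 was 2.67, 2.20 and 4.22 in WT and 5.66, 7.58 and 3.18 in Pum2-/- libraries. Gzma over Nkg7 was 0.822, 1.80 and 1.69 against 1.15, 2.59 and 2.62. The geometric mean of these ratios differed between genotypes 1.21, 1.76 and 1.46 times, with overlap in each.

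Which mice were high within a genotype is a feature that the genotype contrast does not fix. WT replicate 3 was the highest WT library for all 3 granule genes. Among Pum2-/- mice, replicate 3 was highest for Gzma and Nkg7 and replicate 2 for Gzmb, and replicate 1 was lowest for each. Correlated over the 6 libraries after removal of the genotype means, deviations on the log2(value + 1) scale gave r = 0.865 for Gzma with Nkg7, 0.715 for Gzmb with Nkg7 and 0.618 for Gzma with Gzmb, a mean of 0.733. These values share library and scaling, and no p is given for them. WT replicate 3 was also the highest WT library in 22 of the 34 genes higher in Pum2-/- mice, and the median of the 54 genes listed above 0 in all libraries was 20.8 there, against 14.9 and 12.6 in the other WT libraries. The medians of the Pum2-/- libraries were 29.8, 33.4 and 33.7. With each library divided by this median, the mean correlation became 0.557. The part of library scaling in the shared pattern was not tested beyond this division.

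The other 65 listed genes were ranked by the correlation of their deviations with the mean deviation of the granule genes, again over 6 libraries and with no p. The correlations ran from -0.873 to 0.944 with a median of -0.0503, and 31 of the 65 were above 0. The 5 most alike were Saa3 at 0.944, Ido1 at 0.931, Ccl5 at 0.915, Hsd3b3 at 0.913 and Fpr1 at 0.897. These are the highest of 65 values. WT replicate 3 held the largest deviation of Saa3 (1.68), Ido1 (1.64), Ccl5 (1.11) and Fpr1 (0.849), so much weight lay on 1 library. In Pum2-/- libraries Fpr1 deviated only from -0.125 to 0.110, and Saa3 was at or near 0 in WT replicates 1 and 2. With the library medians divided out these 5 genes remained the first 5, at 0.852, 0.842, 0.882, 0.892 and 0.780 in the same order of names.

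Ccl5, a chemokine that cytotoxic lymphocytes secrete and that draws T cells and monocytes, was measured at 18.6, 26.2 and 72.0 in WT and 124, 116 and 355 in Pum2-/- libraries. Its high library was replicate 3 in both genotypes, as for Gzma and Nkg7. That pattern was shown by 14 of the 68 listed genes (20.6%) and by 10 of the 34 genes higher in Pum2-/- mice (29.4%). Ido1, an interferon-induced enzyme that breaks down tryptophan, was at 3.67, 2.03 and 19.6 in WT and 52.7, 155 and 152 in Pum2-/- libraries. Like Gzmb, Ido1 was highest in replicate 3 among WT and replicate 2 among Pum2-/- mice.

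Saa3, an acute-phase serum amyloid, was at 0, 0.0031 and 4.72 in WT and 12.7, 13.3 and 27.1 in Pum2-/- libraries. Fpr1, a receptor for formylated bacterial peptides on neutrophils and monocytes, was at 0.909, 1.01 and 3.74 in WT and 8.79, 9.79 and 10.5 in Pum2-/- libraries. Hsd3b3, a steroid dehydrogenase with close paralogs and therefore uncertain, went the other way between genotypes, at 13.9, 21.2 and 41.6 in WT and 0.963, 1.73 and 6.18 in Pum2-/- libraries. Its order of libraries within each genotype was nevertheless that of Gzma, so a gene lower in Pum2-/- mice shared the pattern too.

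**Figure D4:**
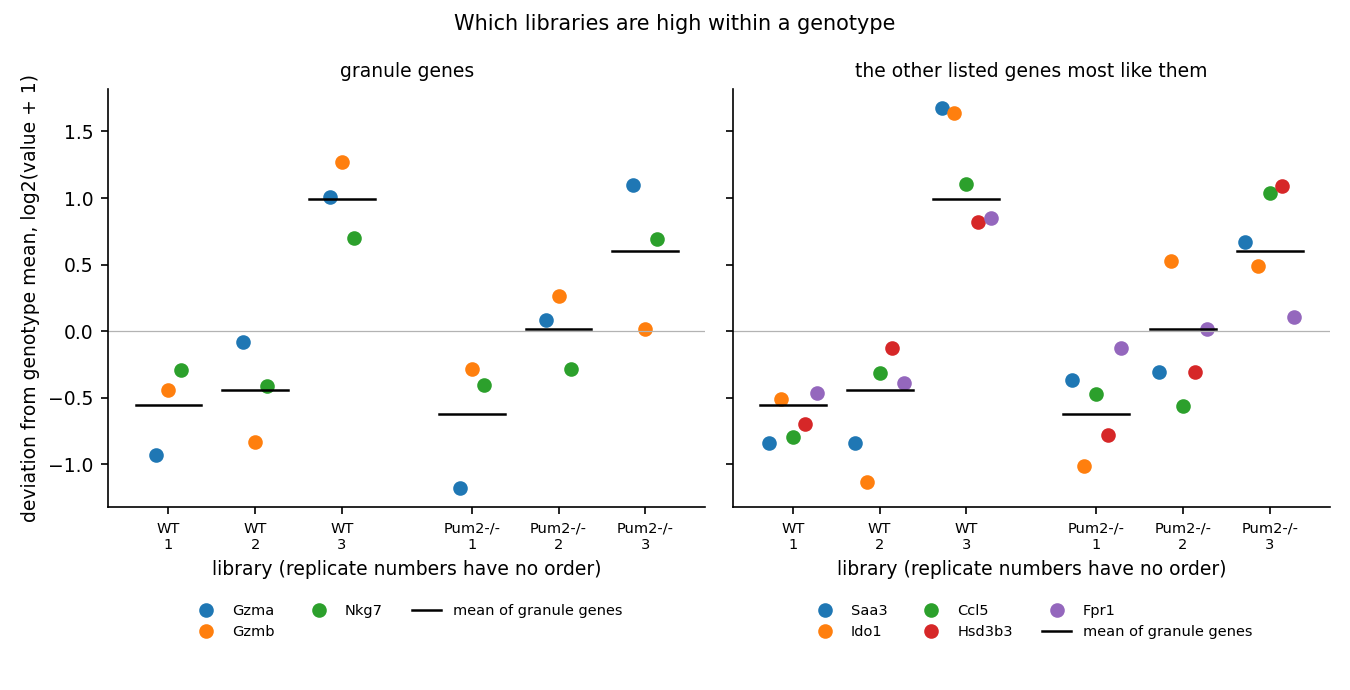
Deviation of each library from its genotype mean on the log2(value + 1) scale (y axis), for the granule genes (left) and the 5 other listed genes most like them (right), with a black line at the mean of the granule genes in each library (x axis, where replicate numbers have no order). WT replicate 3 lies above 0 for all 8 genes and WT replicate 1 and Pum2-/- replicate 1 lie below 0 for all of them.

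From a list of 31 genes of cytotoxic lymphocytes, for granule, surface and secreted proteins and transcription factors, 5 were in the table. These were the 3 granule genes and the secreted chemokines Ccl4 and Ccl5. The other members, perforin and the T cell and natural killer receptors among them, were not analysed here. In all 5 the Pum2-/- libraries exceeded every WT library, as in 44.1% of the listed genes and 30 of the 34 genes higher in Pum2-/- mice. The median log2 difference of the 5 genes was 2.32, which is the value of Gzma itself. The genes ranked 17 and 18 among the 34 higher genes stood at 2.09 and 2.05. The median of all 68 listed genes, -0.15, falls between 34 higher and 34 lower genes and is no background level. For Ccl4 and Ccl5 alone the median was 2.09. Ccl4, a chemokine for T cells and macrophages, stood at 4.66, 3.03 and 8.35 in WT and 8.75, 27.7 and 32.5 in Pum2-/- libraries. Its log2 difference was 1.82 (SE 0.662), its lowest Pum2-/- value was 1.05 times its highest WT value, and it followed the 5 genes above in likeness at 0.840. The summed value of the 3 granule genes was 25.1, 25.3 and 83.4 in WT and 152, 238 and 291 in Pum2-/- libraries, and that of Ccl4 and Ccl5 was 23.3, 29.3 and 80.4 in WT and 133, 144 and 388 in Pum2-/- libraries. Both sums were highest in replicate 3 of each genotype.

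Interferon gamma is the cytokine that activated cytotoxic lymphocytes secrete. Of 20 interferon gamma target genes, 10 were in the table, and each was higher in Pum2-/- mice. In 9 of them the genotypes did not overlap, beside 44.1% of the listed genes and 30 of the 34 genes higher in Pum2-/- mice. The table was selected on this contrast, so nothing is read from these counts. The median log2 difference of the 10 targets was 2.18. The log2 differences were 4.03 for Ido1, 2.96 for Tgtp1, 2.56 for Iigp1, 2.50 for the chemokine Cxcl9, 2.33 for Ubd, 2.03 for Tgtp2, 1.98 for Gbp10, 1.83 for Igtp, 1.76 for Psmb8 and 1.74 for Psmb9. Tgtp1 and Tgtp2 are near-identical copies and Iigp1 has a close copy, so their separate values are uncertain. The granule genes lay within this range. Correlations of their deviations with the mean deviation of the granule genes ran from -0.159 for Tgtp1, an interferon-induced GTPase, to 0.931 for Ido1. Ubd, a ubiquitin-like protein, was the target whose genotypes overlapped, at 32.9, 11.1 and 25.8 in WT and 24.4, 111 and 494 in Pum2-/- libraries. The summed targets ranged from 110.1 to 231 in WT and from 687 to 1335 in Pum2-/- libraries.

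Genes from lists for other cell types differed between the genotypes as well, as did all genes of a table selected on this contrast. Nothing is therefore read from their counts. Of 8 macrophage genes, Ccl8, Ccl12 and Fcgr4 were in the table, and the others, among them Adgre1, Cd68 and Csf1r, were not analysed here. Every Pum2-/- value of these 3 genes exceeded every WT value, as in 44.1% of the listed genes and 30 of the 34 higher genes. Their log2 differences were 1.91, 2.05 and 1.5. Their sum ranged from 189 to 371 in WT and from 672 to 1275 in Pum2-/- libraries, and their deviations correlated with the mean deviation of the granule genes at 0.635 for Fcgr4, an Fc receptor, 0.294 for Ccl12 and -0.113 for Ccl8, both monocyte chemokines. The 2 epithelial genes in the table, of 6, were lower without overlap, as were 29 of the 68 listed genes (42.6%), with log2 differences of -3.80 for Defa30, a Paneth cell defensin with near-identical copies, and -1.83 for Spink1, a secreted protease inhibitor. Their sum was 619 to 1210 in WT and 170.0 to 374 in Pum2-/- libraries. Of 17 immunoglobulin genes, 6 were higher, 5 of them without overlap, and 11 were lower, 9 of them without overlap, beside the same 44.1% and 42.6% over the table. Their summed value was 6869 to 21378 in WT and 1164 to 2660 in Pum2-/- libraries. The 6 mast cell genes and 4 plasma cell genes of the lists were not analysed here. The part of other cell types in the values of Gzma, Gzmb and Nkg7 was not tested.

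Dividing each library by the median of those 54 genes, which were themselves selected for a difference, lowered all 3 differences. The log2 difference was 1.35 for Gzma, 1.65 for Gzmb and 0.81 for Nkg7, or 2.55, 3.15 and 1.76-fold. Gzma then overlapped between genotypes, with rescaled values of 18.2 in Pum2-/- replicate 1 and 23.7 in WT replicate 3, while Gzmb and Nkg7 did not. After this division 19 of the 68 listed genes lay wholly higher in Pum2-/- mice in place of 30. Removing Pum2-/- replicate 1, the library with the lowest Gzma of its genotype, raised the Gzma fold to 7.49. Removing Pum2-/- replicate 3, the library with the highest, lowered it to 3.41.

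**Figure D5:**
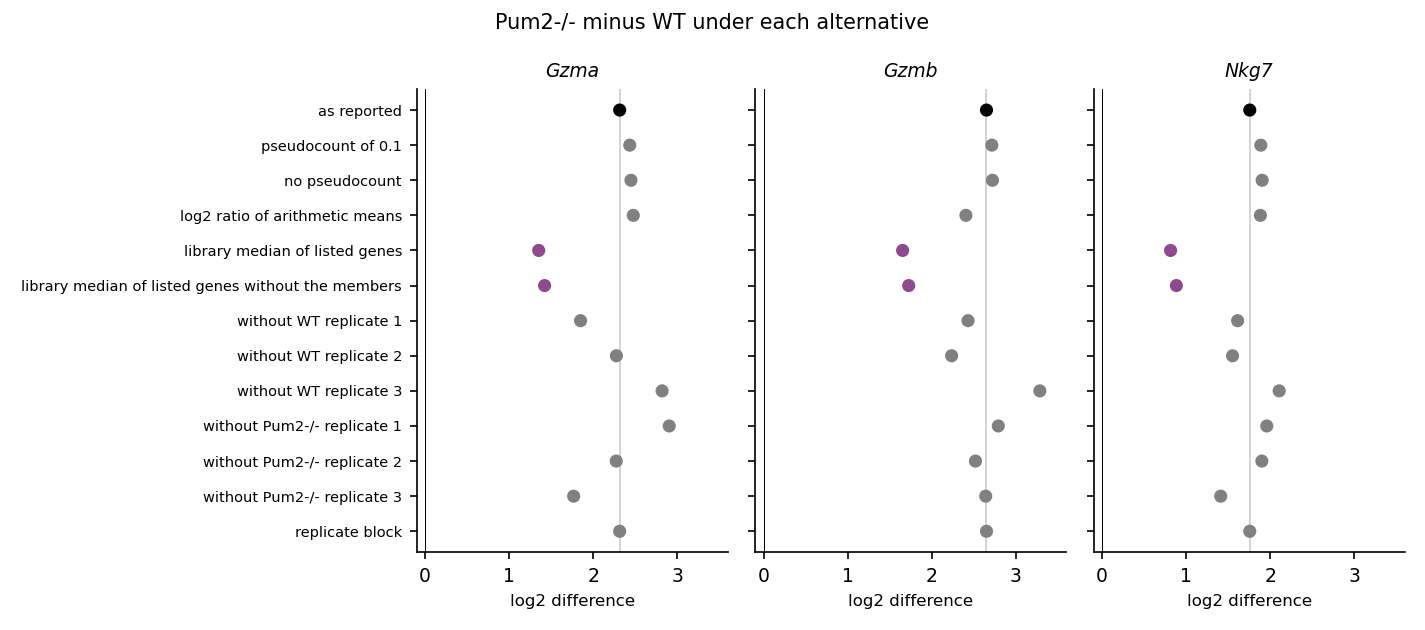
Log2 difference of genotype means, Pum2-/- minus WT (x axis), of each granule gene under each way of computing it (y axis), with the reported value in black, division by a library median in purple and the other settings in grey. The lowest value is 0.81, for Nkg7 with library medians divided out. All values stay above 0, which only division by a library median could have changed.

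Pumilio proteins bind a recognition element in mRNA, mostly in the 3′ UTR, searched here as TGTANATA on the sense strand of the annotated transcripts. No transcript of Gzma, Gzmb or Nkg7 held it in its UTR or elsewhere, which says only that these letters are not there. Their 3′ UTRs are short, from 65 to 67 bases for Gzma, 149 to 152 for Nkg7 and 581 for Gzmb. The element occurs in the 3′ UTR of 24.2% of 21022 protein-coding genes and of 5.99% of the 7527 genes whose 3′ UTR is no longer than that of Gzmb. It was found in 4 of the 50 listed genes with an annotated 3′ UTR. The shorter core TGTA was found 5 times in the longest transcript of Gzma, 4 times in that of Gzmb and 3 times in that of Nkg7, and no binding of Pum2 to these transcripts was measured here.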

How the data were processed

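RNA from untreated colon was sequenced in 3 WT and 3 Pum2-/- libraries, labelled as separate samples with 1 library per title. Nothing in the labels states how the mice were paired. Per gene and library, the authors deposited a normalized signal, for which the method, like the aligner and genome build, is not given in the sources used here. The authors also deposited a log2 fold change per gene with its p-value before and after adjustment. These were not used, apart from counting adjusted p-values under 0.05. Since the authors deposited no totals for the libraries, depth is unknown and no counting interval or detection limit could be set.

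The members and gene lists were chosen with earlier results of these data known. Rows sharing an Ensembl identifier and all values were counted as 1 gene, leaving 68. Values were compared as the difference of genotype means of log2(value + 1), with its standard error. The added 1 makes the differences of low genes smaller. No test was run, because the genes were selected on this contrast. Named genes were the 3 members, Pum2, the listed genes of the lists, and the 5 others whose deviations from the genotype means correlated best with those of the members. Immunoglobulin genes, a family of similar sequences, were given as a group. Coordinates, exons and UTRs came from GENCODE M21 on GRCm38, with 68 identifiers matched, and promoters from RefSeq on GRCm38.p6, from 250 bases before to 50 bases after the start. Promoter motif positions count from the RefSeq start. The alternatives were a pseudocount of 0.1 or none, the ratio of arithmetic means, division by library medians with and without the members, a filter at a mean of 1 or more, removal of each library in turn and the replicate block. Scripts were written for numpy 2.4.6 and pandas 2.3.3 under Python 3.11.15, with plots by matplotlib 3.10.9, and were tested on simulated data.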

Additional observations from a re-analysis of the deposited data

How the results depend on the processing

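The direction of the genotype difference of Gzma, Gzmb and Nkg7 held under every alternative run. Except for division by library medians this was fixed in advance, since every Pum2-/- value of these genes exceeded every WT value. Division by library medians moved the log2 difference of Gzma from 2.32 to 1.35, or 1.42 with the members left out of the median, and left 2 of the 3 granule genes free of overlap. It moved that of Gzmb from 2.65 to 1.65 or 1.73 and that of Nkg7 from 1.76 to 0.81 or 0.88. It moved the mean correlation of deviations from 0.733 to 0.557 and the listed genes lying wholly higher from 30 to 19, or 20 with the members left out. These medians come from genes selected for a difference, and the genes left out for a value of 0 were mostly lower in Pum2-/- mice. Every Pum2-/- median exceeded every WT median, so smaller differences were fixed in advance. The division therefore cannot show a part of library scaling, which was not tested. Leaving out each library gave 1.77 to 2.91 for Gzma, 2.24 to 3.29 for Gzmb and 1.41 to 2.11 for Nkg7. That 3 of 3 granule genes stayed free of overlap each time was fixed in advance, since removing a library cannot create an overlap. The fold moved over 1.5 times without WT replicate 3 for Gzmb (9.76) and without Pum2-/- replicate 1 for Gzma (7.49). The replicate block, the mean of same-numbered differences, gives by construction the same values, 2.32, 2.65 and 1.76. Same-numbered libraries correlated at 0.106, 0.0415 and 0.265 in their deviations over the 68 genes. Libraries with unlike numbers ran from -0.230 to 0.125, the highest being WT replicate 2 with Pum2-/- replicate 1. Correlations over genes selected in this way cannot settle whether the numbers mark pairs. The labels state no pairs, so none were assumed. The unknown depth limits most the WT levels of Gzma and Nkg7.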
